A study of Mus musculus with 2 samples.

Results

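Bdh1, Oxct1, Acat1 and Bdh2 were examined as the genes of ketone body use in the neonatal mouse heart. They were selected by gene symbol and make up 4 of the 55536 annotated genes in the gene tables. Total RNA was sequenced from the hearts of 2 female mice of the strain labelled B6CASTF1/J, an F1 hybrid supplied by The Jackson Laboratory, at 4 days of age, with no treatment named. Each stranded, ribosome-reduced library was made from 300 ng of RNA with ERCC spike-ins, which are synthetic RNAs added in known amounts. The labels number the hearts as biological replicates 1 and 2 of the same group but give them the same donor identifier, so that they came from separate animals rests on those numbers. Without a second group there was no contrast between conditions, and the smallest two-sided permutation p that 2 libraries allow is 0.5, so no p-value was computed.

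Ketone bodies are small acids that the liver makes from fatty acids and that other organs burn when fat is the main fuel, as it is in suckling animals fed on milk. In the heart, BDH1 in the mitochondrion oxidises beta-hydroxybutyrate to acetoacetate, OXCT1 (also called SCOT) moves coenzyme A from succinyl-CoA to acetoacetate, and the thiolase ACAT1 splits the resulting acetoacetyl-CoA into acetyl-CoA for the citric acid cycle. OXCT1 catalyses the step that commits ketone bodies to oxidation and is characteristically lacking in liver, whereas BDH1 and ACAT1 work in both directions. ACAT1 also acts at the end of isoleucine breakdown, and BDH2 is a cytosolic dehydrogenase linked to iron handling.

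The 4 genes fell into an abundant pair and a scarce pair. Oxct1 and Acat1 each stood above 100 TPM (a level corrected for transcript length and library depth) in both hearts, while Bdh2 was near 3 TPM and Bdh1 below 1 TPM. By mean TPM the order was Acat1, Oxct1, Bdh2, Bdh1, and the ranges of the 2 libraries did not overlap between any neighbours in that order. The smallest step was that from Oxct1 to Acat1, at 1.12-fold, and its size depended on which transcripts were counted. The largest, from Bdh2 to Oxct1, was 35.7-fold.

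**Figure D1:**
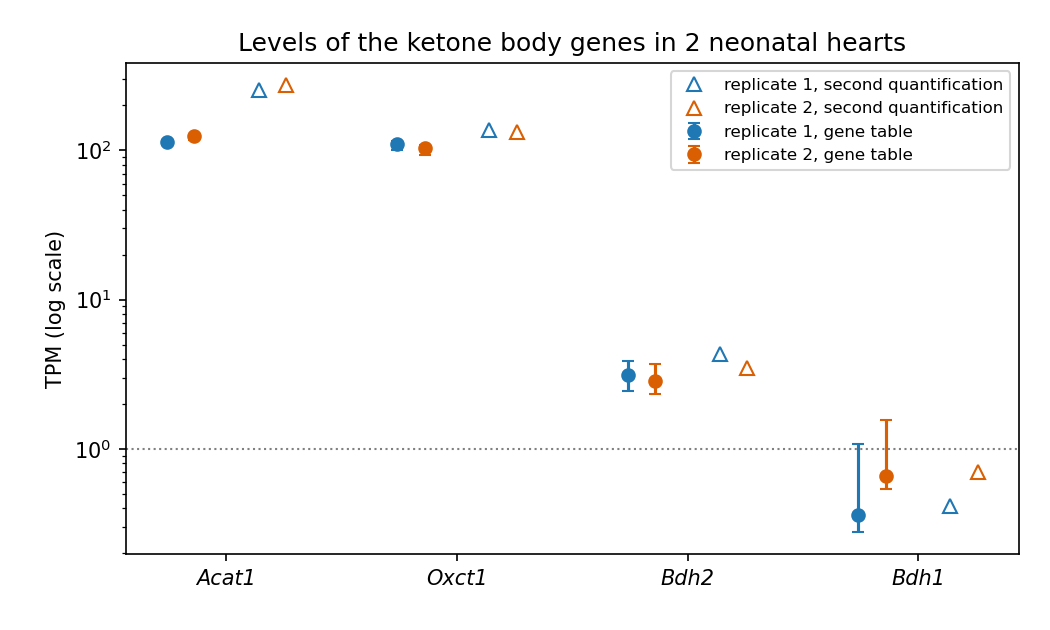
TPM on a log axis for the 4 genes in replicate 1 (blue) and replicate 2 (orange). Filled circles are the RSEM-layout gene table with the deposited credibility bounds as bars, open triangles the kallisto-layout quantification without bounds, and the dotted line marks 1 TPM. Acat1 and Oxct1 lie above 100 TPM, Bdh2 between 2.87 and 4.36 TPM, and the Bdh1 points between 0.36 and 0.70 TPM.

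The tables hold 2 quantifications of each library, named here by their column layouts as those of RSEM and of kallisto. They divide reads among the transcripts of a gene in different ways, and for Oxct1 and Acat1 the division turned on 3 short transcripts without an annotated reading frame. The bases that set these apart from the main coding transcript of their gene are shown because reads over all other exon bases of these transcripts also match the coding transcript. Capitals mark bases found in no other annotated transcript of the gene and lower case the first 20 bases shared with the coding transcript, 5′ to 3′, from GENCODE M21 on GRCm38 (mm10). All the capitals lie in introns of the coding transcript.
Acat1-203, 163 bases of its own at chr9:53583595-53583757 on the minus strand: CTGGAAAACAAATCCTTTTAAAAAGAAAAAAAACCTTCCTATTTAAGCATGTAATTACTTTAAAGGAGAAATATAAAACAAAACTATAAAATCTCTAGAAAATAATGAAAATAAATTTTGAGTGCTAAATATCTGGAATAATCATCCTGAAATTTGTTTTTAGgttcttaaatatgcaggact
Oxct1-203, 54 bases of its own at chr15:4047259-4047312 on the plus strand: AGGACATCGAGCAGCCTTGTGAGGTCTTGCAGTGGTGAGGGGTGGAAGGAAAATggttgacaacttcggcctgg
Oxct1-202, 44 bases of its own at chr15:4142523-4142566 on the plus strand: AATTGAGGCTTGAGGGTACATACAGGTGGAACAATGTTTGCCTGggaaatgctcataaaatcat
In Acat1-203 the intron bases run directly into the shared exon, with 0 bases between. In Oxct1-203 and Oxct1-202 they form a separate first exon, with 152 and 225 intron bases before the shared exon.

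Oxct1, on chr15:4026383-4155344 (plus strand, GRCm38, identifier ENSMUSG00000022186.14), spans 129 kb and has 5 annotated transcripts. It was counted at 6603 reads in replicate 1 and 5665 in replicate 2. Its level was 110.36 TPM in replicate 1 and 103.07 TPM in replicate 2 (106.72 ± 5.15, SD, n = 2). The deposited credibility bounds describe the uncertainty of a level within a library, not only that of dividing reads. They ran from 101 to 115 TPM in replicate 1 and from 92.8 to 108 TPM in replicate 2. The bounds of the 2 hearts overlapped. In the kallisto-layout table Oxct1 was at 136.46 and 133.19 TPM (134.82 ± 2.31, SD, n = 2). Of the 11948 protein-coding genes with at least 1 TPM in both hearts, 94.3% had a lower mean TPM than Oxct1.

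A coding transcript of 17 exons and 3527 nt, Oxct1-201, carried 55.2% of the TPM of Oxct1 in replicate 1 and 59.0% in replicate 2 (57.1% ± 2.63, SD, n = 2). By reads it carried more, 89.6% of the expected counts, since TPM weights a short transcript more heavily than a long one with the same reads. The 699-nt transcript Oxct1-203 took 20.7% and 22.3% of the TPM, on 386 and 338 expected counts. The 480-nt Oxct1-202 took 22.3% and 17.8%, on 263 and 171 counts. In the kallisto-layout table Oxct1-203 had a share of 38.4% and 38.8%, and Oxct1-202 was at 0 counts in both libraries. Protein-coding transcripts together made up 58.4% of Oxct1 in the RSEM layout and 61.4% in the kallisto layout. The coding share was therefore similar in both quantifications, although the noncoding remainder was assigned to different transcripts. Oxct1-205, the other coding transcript, held 1.34% ± 0.498 (SD, n = 2), and Oxct1-204 had no counts.

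Acat1, on chr9:53580522-53610382 (minus strand, ENSMUSG00000032047.5), is a gene of 29.9 kb with 3 annotated transcripts. Its expected counts were 10266 in replicate 1 and 9673 in replicate 2. At 114.64 TPM in replicate 1 and 124.62 TPM in replicate 2 (119.63 ± 7.06, SD, n = 2), it exceeded 94.9% of the expressed protein-coding genes. Credibility bounds ran from 109 to 118 TPM in replicate 1 and from 117 to 127 TPM in replicate 2, so those of the 2 hearts met over a narrow stretch. The kallisto-layout table gave 253.5 and 272.88 TPM (263 ± 13.7, SD, n = 2), a higher level in both hearts. Most of that excess was Acat1-203.

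The 500-nt transcript Acat1-203 was at 4.23 and 6.19 TPM in the RSEM-layout table and at 130 and 142 TPM in the kallisto-layout table. In reads, this was 47.6 and 61.0 expected counts against 568 and 558. The coding transcript Acat1-201, of 12 exons and 3405 nt, changed far less between the quantifications. It went from 110 to 123 TPM in replicate 1 and from 118 to 130 TPM in replicate 2. Its counts were lower in the kallisto layout, at 9787 against 10216 in replicate 1 and 9188.5 against 9612 in replicate 2. Each member had a higher TPM in the kallisto layout in both hearts, so that direction was not particular to Acat1. As a share of the gene, Acat1-201 held 95.5% ± 0.693 of the TPM in the RSEM layout and 48.2% ± 0.565 in the kallisto layout (SD, n = 2). Of the 500 bases of Acat1-203, 337 also belong to Acat1-201 and 163 are those shown in capitals above. The files do not hold reads, so which division is nearer to the RNA present was not tested.

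**Figure D2:**
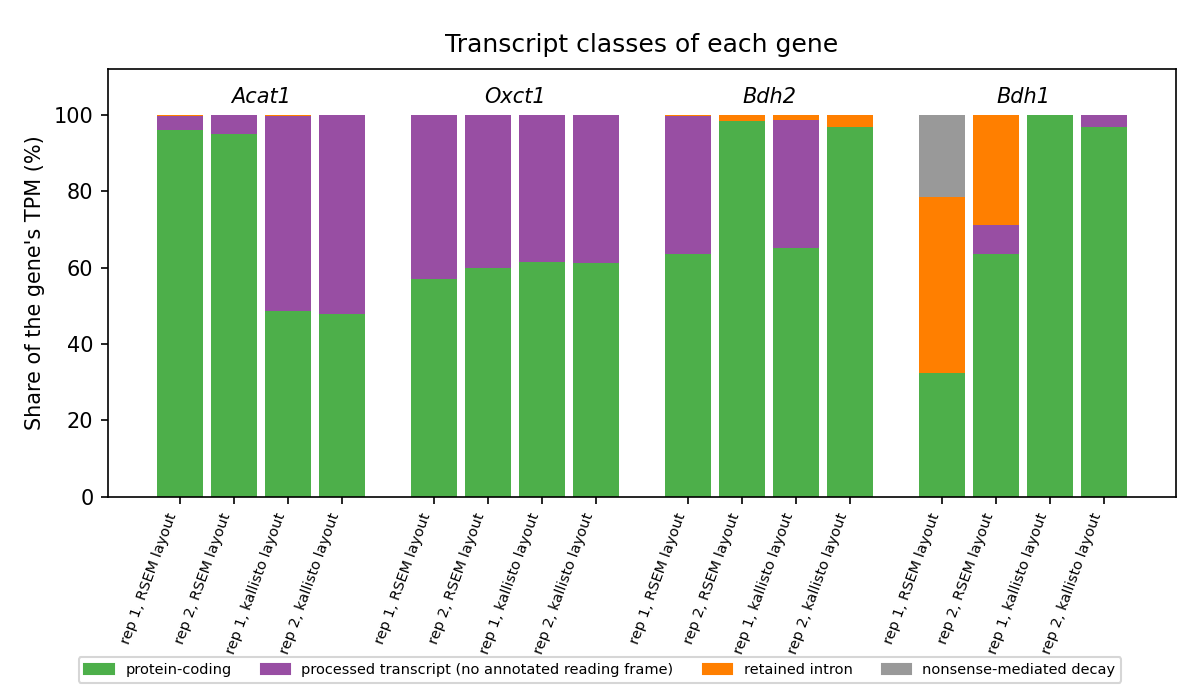
Share of each gene's TPM (vertical axis, in percent) by annotated transcript class, with 4 stacked bars for each gene, 1 for each library in each quantification. The coding share of Oxct1 is similar in all 4 bars, that of Acat1 drops from 95.5% to 48.2% between the RSEM and kallisto layouts, and the bars of Bdh2 and Bdh1 rest on few reads.

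The comparison of Acat1 with Oxct1 followed these transcript shares. In the RSEM layout Acat1 was 1.04-fold above Oxct1 in replicate 1 and 1.21-fold in replicate 2, a log2 ratio of 0.16 ± 0.15 (SD, n = 2). In replicate 1 the credibility bounds of the 2 genes overlapped, and in replicate 2 they did not. With the kallisto layout the log2 ratio was 0.96. Counting only protein-coding transcripts, an alternative chosen after the data had been seen, gave 114 TPM for Acat1-201 against 60.9 TPM for Oxct1-201, and a log2 ratio over all coding transcripts of 0.87 in the RSEM layout and 0.61 in the kallisto layout. Acat1 was thus the higher of the pair in both hearts under every setting tried, by between 1.12-fold and 1.95-fold on the mean.

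Bdh2, on chr3:135281221-135304426 (plus strand, ENSMUSG00000028167.15), was expressed weakly but above 1 TPM in both hearts. It was counted at 81 reads in replicate 1 and 76 in replicate 2. Its level was 3.11 and 2.87 TPM (2.99 ± 0.170, SD, n = 2), with credibility bounds of 2.43 to 3.88 TPM and 2.32 to 3.68 TPM, and was higher than that of 12.4% of expressed protein-coding genes. The kallisto layout gave 4.36 and 3.46 TPM. Its leading transcript, the coding Bdh2-202, held 41.3% of the TPM in replicate 1 and 69.7% in replicate 2, on 38.7 and 52.7 expected counts. The noncoding Bdh2-203 held 36.2% in replicate 1 and 0% in replicate 2. At these read numbers the transcript shares of Bdh2 differed more between the hearts than the level of the gene.

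Bdh1, on chr16:31422280-31458901 (plus strand, ENSMUSG00000046598.15), encodes the enzyme that takes up beta-hydroxybutyrate into the pathway and was the least abundant of the 4. It was counted at 12 reads in replicate 1 and 25 in replicate 2, or 0.334 and 0.773 CPM (counts scaled to library depth only). A count of 0 would have allowed up to 3 counts, which is 0.0834 and 0.0928 CPM, so Bdh1 was detected above this limit in both hearts. Its level was 0.36 and 0.66 TPM (0.51 ± 0.212, SD, n = 2), and 0.416 and 0.700 TPM in the kallisto layout. The posterior mean TPM, another deposited estimate, was higher at 0.65 and 1.02. The credibility bounds were wide, from 0.277 to 1.08 TPM in replicate 1 and from 0.538 to 1.57 TPM in replicate 2, and overlapped. Its 7 transcripts could not be ordered at this depth. The leading transcript by TPM, the retained-intron Bdh1-205 (37.4% ± 12.1, SD, n = 2), rested on 1.57 and 1.58 expected counts and had 0 in the kallisto layout.

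Oxct1 stood 307-fold above Bdh1 in replicate 1 and 156-fold in replicate 2, a log2 ratio of 7.77 ± 0.69 (SD, n = 2). For Acat1 over Bdh1 the ratio was 318-fold and 189-fold, or 7.94 ± 0.53 on the log2 scale. Bdh2 exceeded Bdh1 8.64-fold and 4.35-fold, a log2 ratio of 2.62 ± 0.70. Against Bdh2, Acat1 was 40.0-fold and Oxct1 35.7-fold higher on the mean. The kallisto layout gave 67.8-fold for Acat1 over Bdh2 and 487-fold for Acat1 over Bdh1, and posterior mean TPM gave 128-fold for Oxct1 over Bdh1 and 3.76-fold for Bdh2 over Bdh1. Ratios that involve Bdh1 varied more between the hearts than the others, as its small counts did. In all 6 pairs of the 4 genes the library ranges were separate in both quantifications.

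Start-site sequences were taken from RefSeq (GRCm38.p6) as windows of 300 bases, 250 before and 50 after the annotated start. Bdh2, Oxct1 and Bdh1 were matched, Bdh1 with a pair of start sites. The windows of Oxct1 and of the downstream start of Bdh1 are shown because these genes act in consecutive steps and differed widely in level. Capitals mark CG dinucleotides, whose clusters are typical of promoters active in many tissues.
Oxct1, chr15:4026178-4026477, plus strand: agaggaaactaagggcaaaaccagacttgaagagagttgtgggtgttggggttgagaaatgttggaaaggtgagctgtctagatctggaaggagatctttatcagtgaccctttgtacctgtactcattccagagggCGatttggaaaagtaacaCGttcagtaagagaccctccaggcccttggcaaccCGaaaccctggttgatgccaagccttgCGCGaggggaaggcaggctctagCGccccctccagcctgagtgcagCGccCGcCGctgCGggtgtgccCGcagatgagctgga
Bdh1, chr16:31428503-31428802, plus strand: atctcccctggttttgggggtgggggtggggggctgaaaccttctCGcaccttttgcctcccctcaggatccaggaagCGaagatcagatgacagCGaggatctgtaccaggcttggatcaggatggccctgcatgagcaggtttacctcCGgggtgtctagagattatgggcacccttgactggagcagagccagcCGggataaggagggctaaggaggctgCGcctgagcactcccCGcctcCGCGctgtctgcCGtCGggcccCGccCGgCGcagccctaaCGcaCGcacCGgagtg
The Oxct1 window held 11 CG dinucleotides at 55.3% GC and this Bdh1 window 17 at 63.7% GC. The upstream Bdh1 window (chr16:31422047-31422346) held 7 and the Bdh2 window (chr3:135280971-135281270) held 6. Over all 32851 windows of this length the median was 7, with quartiles of 3 and 20, so all of these lay within the middle range. Motifs were searched on both strands, and none of the 4 contains another. The Sp1-type sequence GGGCGG, present in 35.7% of all windows, was in the downstream Bdh1 window only. CCAAT, present in 37.4%, was in the Bdh2 window only. TATAAA (13.6% of all windows) and the nuclear receptor half-site AGGTCA (16.3%) were in none of the 4.

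Levels of the 4 genes were nearly the same in both hearts, apart from the low-count Bdh1. To be called different, a gene needed a mean TPM of 1 or more, 20 or more counts in sum, a ratio of 2-fold or more, and a 95% interval (exact, Clopper-Pearson) that left out a ratio of 1. These intervals cover counting error only, so a call sets 2 libraries apart and not 2 conditions. Of the 3 genes above the TPM minimum, 0 were called. Over all 13598 genes tested, 44 (0.324%) were called higher in replicate 2, 74 (0.544%) higher in replicate 1, and 118 (0.868%) in either direction, so 0 of 3 is near the background share. With scaling by the spike-ins in place of all genes, the median ratio moved by 0.13 on the log2 scale and the split became 68 higher in replicate 2 and 60 in replicate 1, or 46.9% of calls higher in replicate 1 against 62.7%. No member was called under that scaling either.

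The log2 ratio of replicate 2 over replicate 1 was 0.02 for Acat1 (95% interval -0.02 to 0.06). For Oxct1 it was -0.11 (-0.16 to -0.06), an interval that excluded equality although the difference was small. Relative to all tested genes, whose ratios ran from -0.30 to 0.31 between the 5th and 95th percentiles, both lay near the centre, and 39.6% of tested genes had a larger absolute ratio than Oxct1. Under spike-in scaling Oxct1 stood at 0.02 and Acat1 at 0.16, so the direction for Oxct1 depends on the scaling. Bdh2 had a ratio of 0.02 with a wide interval (-0.45 to 0.49). For Bdh1 the ratio was 1.13 (0.12 to 2.30). Bdh1 was below the TPM minimum and was called only where no minimum was set, which gave 249 calls in that direction among 26503 genes.

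**Figure D3:**
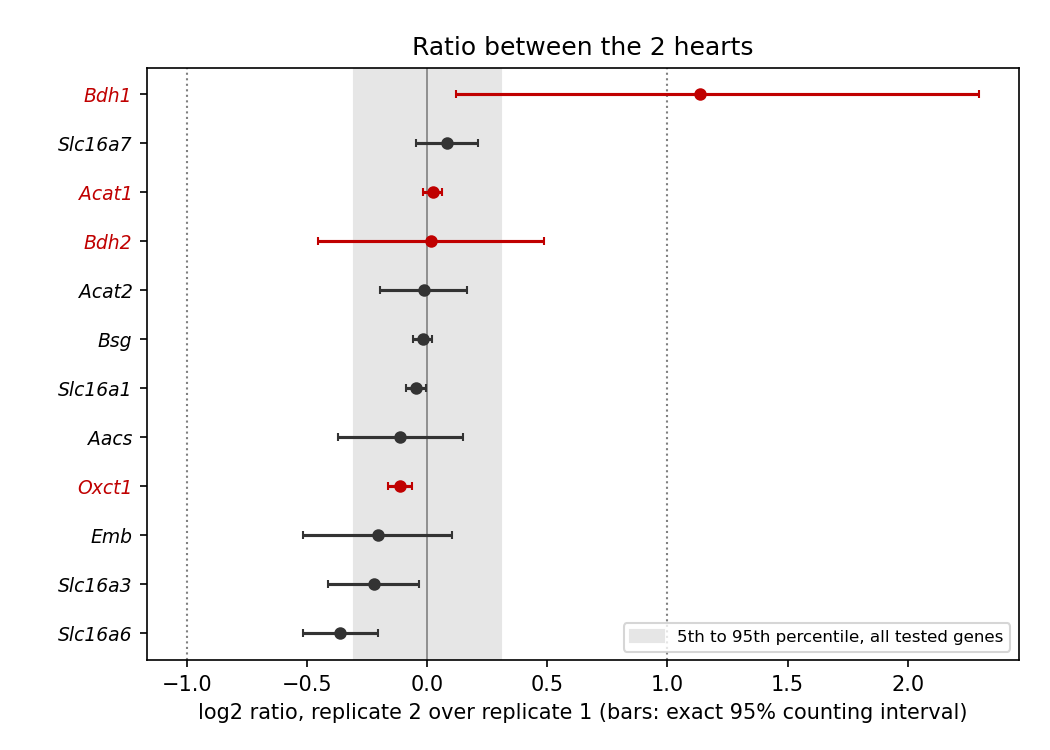
Log2 ratio of replicate 2 over replicate 1 (horizontal axis) with exact 95% counting intervals, for genes of ketone use and transport with at least 20 counts in sum. The 4 members are in red, the grey band is the 5th to 95th percentile of all tested genes (-0.30 to 0.31), and dotted lines mark 2-fold. Acat1, Oxct1 and Bdh2 have points inside the band, and Bdh1 lies beyond it at 1.13 with the widest interval.

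The libraries held 35964801 and 32331718 expected counts on annotated genes. Cardiomyocyte markers were abundant, with 8 of 8 expressed in both hearts and a summed level of 33440 and 33939 TPM. The replicate 1 library had higher levels of erythroid markers (17279 against 221 TPM in sum), skeletal muscle markers (45.4 against 6.91 TPM) and adipocyte markers (8.32 against 2.10 TPM). Fibroblast markers summed to 1788 and 2160 TPM, endothelial markers to 346 and 351, macrophage markers to 35.8 and 50.8, and glial markers to 16.2 and 11.9. The glial difference came from Mbp (8.29 and 2.16 TPM), and 3 of the 4 tested glial genes were higher in replicate 2. Of the hepatocyte markers, 0 of 9 passed 1 TPM in both hearts, with a summed level of 3.01 and 3.43 TPM and Serpina1a at 0 counts. For the erythroid and the skeletal muscle list, 6 of 6 tested genes were called higher in replicate 1. Bdh1 was the member that differed most between these libraries, in the other direction, and the part of other cell types in that difference was not tested. In bulk tissue, fewer cells of a type and less RNA per cell cannot be told apart.

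The remaining genes of ketone use were far below Oxct1 and Acat1 or nearly absent. The lists of pathway genes named here were drawn up by function and not by how the genes moved. Of 5 further genes for ketone use, 2 passed 1 TPM in both hearts, beside 24.1% of all annotated genes and 54.2% of protein-coding genes. Aacs, which activates acetoacetate in the cytosol for lipid synthesis, was at 3.04 and 3.19 TPM (3.12 ± 0.106, SD, n = 2), 34.2-fold below Oxct1 and 21.1-fold below it with posterior mean TPM. The cytosolic thiolase Acat2 was at 9.37 and 9.61 TPM, 12.6-fold below its mitochondrial relative Acat1. That ratio was 20.5-fold in the kallisto layout and 19.8-fold in CPM. The testis-type transferases Oxct2a and Oxct2b had 0 and 1 counts and 0 and 0 counts.

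Among the carriers that bring ketone bodies and lactate into cells, Slc16a1 (monocarboxylate transporter MCT1) was the most abundant, at 78.89 and 80.97 TPM (79.9 ± 1.47, SD, n = 2). It stood 8.37-fold above Slc16a3 (MCT4), the transporter typical of lactate export, at 10.12 and 9.02 TPM, or 19.7-fold above it in CPM. Slc16a7 (MCT2) was at 10.8 and 13.08 TPM and Slc16a6 at 10.02 and 8.94 TPM. Bsg (basigin), the chaperone of MCT1 at the cell surface, was at 351 and 368 TPM, and the alternative chaperone Emb at 6.32 and 5.92 TPM. Slc16a8 was at 0.10 TPM in both hearts, and the sodium-coupled carriers Slc5a8 and Slc5a12 were at 0 counts. In all, 6 of 9 transport genes passed 1 TPM in both hearts.

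**Figure D4:**
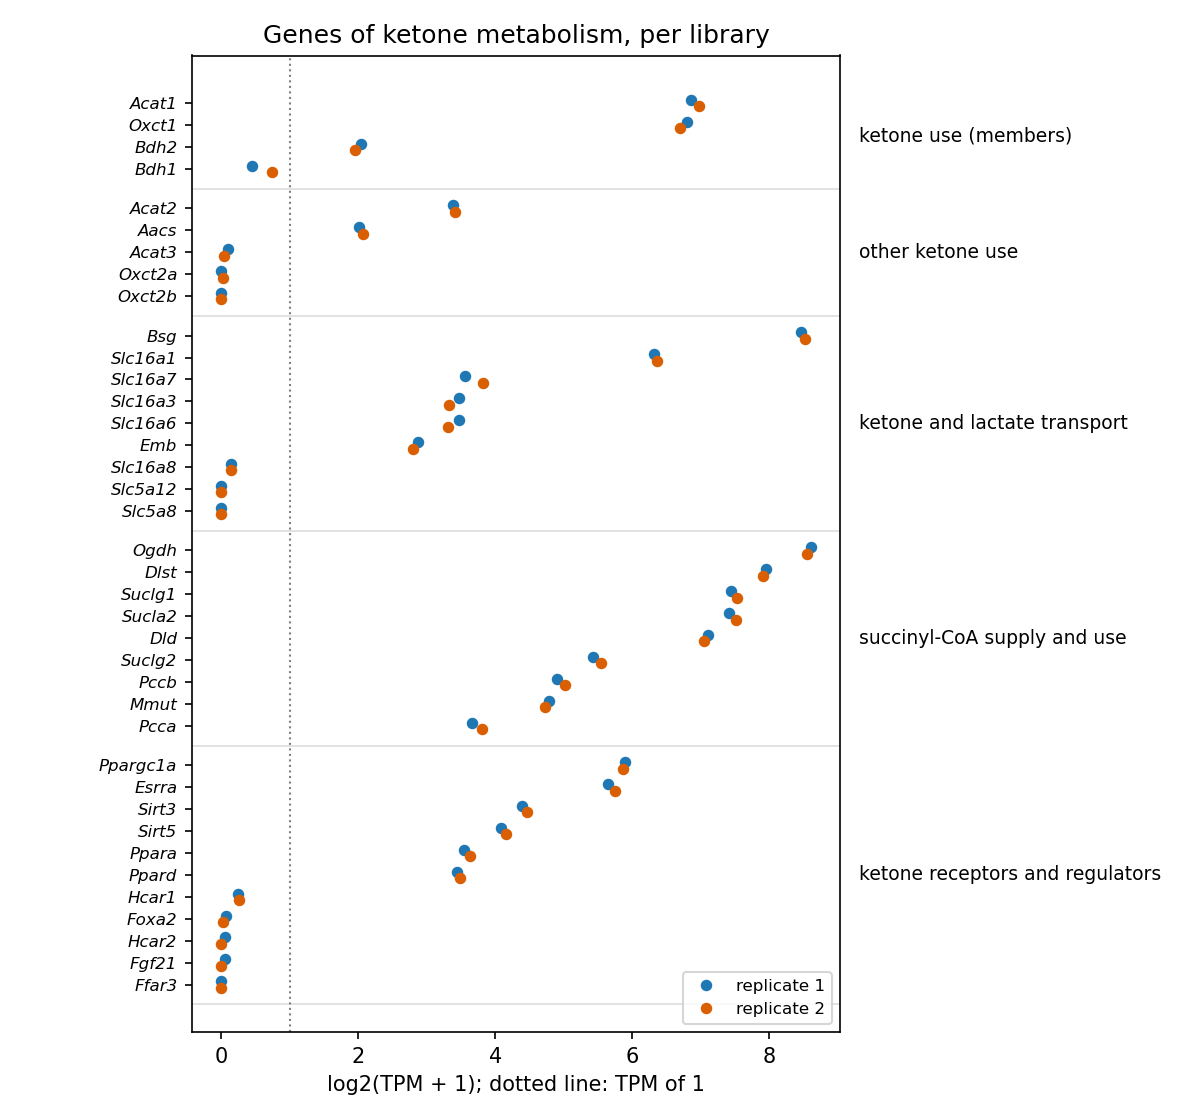
Levels of genes of ketone use, transport, succinyl-CoA metabolism and regulation as log2(TPM + 1) on the horizontal axis, 1 point per library (replicate 1 blue, replicate 2 orange). The dotted line is 1 TPM. Acat1, Oxct1 and Slc16a1 lie to the right of it at similar levels, Bdh1 to its left in both hearts.

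OXCT1 draws its coenzyme A from succinyl-CoA, and all 9 genes listed for succinyl-CoA supply and use were expressed in both hearts. The oxoglutarate dehydrogenase genes that make it were high, with Ogdh at 382 ± 8.51 TPM, Dlst at 244 ± 5.70 TPM and Dld at 134 ± 4.40 TPM (SD, n = 2). Succinyl-CoA ligase, which competes for the same substrate, was represented by Suclg1 at 178 ± 7.59 TPM, the ATP-forming subunit Sucla2 at 175 ± 8.63 TPM and the GTP-forming subunit Suclg2 at 43.9 ± 2.64 TPM. Oxct1 was below Sucla2, with a log2 ratio of -0.71 ± 0.14, and above Suclg2, with a ratio of 1.28 ± 0.16. The propionate branch was lower, with Pccb at 30.2, Mmut at 26.1 and Pcca at 12.3 TPM on the mean.

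Acat1 was intermediate among the thiolases. The enzymes of fatty acid oxidation were higher, Acaa2 at 601 and 647 TPM, 5.22-fold above Acat1, and Hadhb at 463 and 463 TPM. Acaa2 was 2.75-fold above Acat1 in the kallisto layout and 1.90-fold above it in CPM. Scp2, a peroxisomal thiolase and sterol carrier, was at 54.1 TPM on the mean and the peroxisomal Acaa1a at 30.0 TPM. Acaa1b was at 0.77 TPM, though its reads can be shared with the near-identical Acaa1a, and Acat3 at 0.05 TPM. Of the 8 genes in the family, 6 passed 1 TPM in both hearts. In the kallisto layout 7 did, with Acaa1b at 1.81 and 2.00 TPM.

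Regulators of ketone metabolism were expressed at moderate levels and its receptors were near 0. Ppargc1a and Esrra, which drive mitochondrial genes, were at 58.1 ± 0.827 and 51.0 ± 2.75 TPM (SD, n = 2). The fatty acid receptors Ppara and Ppard were at 10.66 and 11.34 TPM and at 9.87 and 10.18 TPM. The mitochondrial deacylases Sirt3 and Sirt5, which act on ketone enzymes, were at 20.5 ± 0.785 and 16.3 ± 0.601 TPM. The beta-hydroxybutyrate receptor Hcar2 had 2 and 0 counts, the short-chain fatty acid receptor Ffar3 had 0 and 0, and the lactate receptor Hcar1 was at 0.18 and 0.19 TPM. Fgf21, a fasting hormone of the liver, had 1 and 0 counts, and the liver factor Foxa2 had 1 and 1.

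Set against 61 genes of the other fuel routes, Oxct1 and Acat1 fell in the middle while Bdh1 and Bdh2 were below all 61. Oxct1 was above 13 of 13 genes of isoleucine and branched-chain breakdown, 6 of 19 of fatty acid oxidation, 4 of 11 of pyruvate and lactate entry and 1 of 18 of the citric acid cycle. Acat1 was above 13, 7, 5 and 1 of the same lists. In the kallisto layout, ranked after the data had been seen, Acat1 was above 13, 10, 5 and 4, or 32 of the 61 genes against 26, while the counts for Oxct1, Bdh2 and Bdh1 were unaltered. All genes listed for these routes passed 1 TPM in both hearts. Their mean levels ran from Cpt1a at 61.2 to Acaa2 at 624 TPM in fatty acid oxidation, from Suclg2 at 43.9 to Idh2 at 761 TPM in the citric acid cycle, from Dbt at 9.74 to Hsd17b10 at 66.2 TPM in branched-chain breakdown and from Pdhx at 47.5 to Ldhb at 603 TPM in pyruvate and lactate entry.

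Likeness of level was measured as the mean absolute difference of log2 TPM over the 2 libraries. Nearest to Oxct1 was the pyruvate carrier subunit Mpc1 (110.6 and 104.04 TPM), at a difference of 0.0083, then Eci2, an enoyl-CoA isomerase, at 0.0914 and Dlat, a subunit of pyruvate dehydrogenase, at 0.198. The same 3 genes were nearest to Acat1, in the order Eci2 (0.0730), Dlat (0.0952) and Mpc1 (0.156). In the kallisto layout the nearest were other genes, Pdk2, Decr1 and Slc25a20 for Oxct1 and Suclg1, Idh3g and Idh3b for Acat1. Bdh2 and Bdh1 had no close neighbour, the nearest being Dbt at 1.70 and 4.32. With 2 libraries of 1 group, this describes similar levels only.

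Of the 100 distinct genes in the 11 pathway lists, members included, 86 were tested between the hearts and 0 were called, against 0.868% of all tested genes. Their ratios of replicate 2 over replicate 1 had a median of -0.04 and ran from -0.36 for Slc16a6 to 0.19 for Acaa1a, where the median of all tested genes was -0.0032. Pdk4, which restrains pyruvate oxidation, was at 73.65 and 62.15 TPM, with a ratio of -0.35 (-0.41 to -0.29).

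Genes that overlap the members contributed little. BC037032, a noncoding gene on the opposite strand of the 5′ end of Oxct1 (chr15:4020114-4027405), had 163 and 166 counts, and the antisense genes Gm15632 within Oxct1 and Gm15743 within Bdh1 had 0. Acat1 and Bdh2 overlapped no other annotated gene. The posterior SD of the counts was at most 0.03 for the 4 genes, so few of their reads were shared with other genes.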

How the data were processed

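Total RNA from 2 hearts was sequenced, 1 library each. Per the labels and the notes deposited with the files, reads were quantified on mm10 with annotation M21. Program versions were not given in the sources used here, and neither were program names. The authors' gene and transcript tables in RSEM layout hold expected counts, TPM, and the percent of a gene in each transcript, together with posterior means, posterior SDs and credibility bounds. The authors deposited a further transcript table in kallisto layout with estimated counts and TPM, which were summed per gene (86 genes had none). Totals on annotated genes were 35964801 and 32331718 counts. Spike-ins and features named by a number only were left out of library sizes. A count of 0 allows 3 counts, and intervals cover counting error only.

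Levels are TPM with mean ± SD. TPM is relative within a library, so an abundant RNA lowers all others. Rounded expected counts were scaled by TMM (edgeR 4.0.16, R 4.3.3) with a prior count of 0.5, and DESeq2 1.42.0 size factors served as an alternative. Other steps ran in Python 3.11.15 (scipy 1.17.1, numpy 2.4.6, pandas 2.3.3). The calling rule was tested on simulated counts with known folds and counting error only. That test cannot show how the rule behaves with variation between animals. Transcript sequences are from GENCODE M21 and start-site windows from RefSeq (GRCm38.p6). These are reference sequences, and differences between them and the alleles of the F1 hybrid were not examined.

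The members and the lists were chosen with earlier results of these data known. Named genes are the members, the genes of the lists of ketone use, transport and regulation, succinyl-CoA and thiolases, the highest and lowest of the other pathway lists, and the 3 genes nearest in level to each member. Pdk4 and the marker genes named singly were chosen after their values were seen. Results of a few genes in the lists are not reported here. Alternatives covered the kallisto layout, posterior mean TPM, CPM without length, other scalings, filters and folds, and each library alone.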

Additional observations from a re-analysis of the deposited data

How the results depend on the processing

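No paired analysis was possible because the labels give a single group. No pair ratio changed sign. Among ratios between the hearts, none of them called where a TPM and count minimum was set, Oxct1 changed sign under spike-in scaling and Bdh2 in the kallisto layout (-0.13). In all, 121 alternatives stayed within a set limit and 40 moved further. The limit was the replicate spread for levels, pair ratios and transcript shares, and 1.5 times for counts of genes. For ratios between the hearts it was the exact interval of the main value, which covers counting error only. That interval is wide for Bdh1 and Bdh2, and the sign change of Bdh2 counts among the 121. The 121 include the levels, pair ratios and leading-transcript shares of each library alone. With 2 libraries, neither value can lie further from their mean than the SD. Those alternatives could therefore not have moved, and the tally does not measure stability for them. The log2 ratios of the pairs moved as follows. In the kallisto layout Acat1 over Oxct1 was 0.96, Acat1 over Bdh2 6.08, Acat1 over Bdh1 8.93 and Oxct1 over Bdh2 5.12. With CPM, which ignores length, these were 0.70, 6.99, 9.17 and 6.28, and Oxct1 over Bdh1 was 8.46. With posterior mean TPM Acat1 over Bdh1 was 7.17, Oxct1 over Bdh2 5.09, Oxct1 over Bdh1 6.999 and Bdh2 over Bdh1 1.91. With coding transcripts only, chosen after seeing the data, Acat1 over Oxct1 was 0.87, Acat1 over Bdh2 5.59, Acat1 over Bdh1 8.99, Oxct1 over Bdh2 4.72 and Bdh2 over Bdh1 3.40.

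Between the hearts, Oxct1 was at 0.022 under spike-in scaling, and Acat1 at 0.16 under spike-in scaling and 0.068 with total counts. Calls higher in replicate 2 numbered 68 with spike-ins, 249 without a minimum and 133 at 1.5-fold, and calls higher in replicate 1 numbered 334 and 177 in the last 2 settings. The leading transcript of Acat1 held 48.2% in the kallisto layout and 99.4% of counts, that of Oxct1 89.6% of counts, that of Bdh2 81.0% in the kallisto layout, and that of Bdh1 0% there and 9.70% of counts. At 5 TPM, 2 members passed in place of 3, as Bdh2 fell below, and 1 further gene of ketone use in place of 2. The cause of these shifts was not tested.

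In each library alone, the ratio ran from 0.05 to 0.27 for Acat1 over Oxct1, 5.20 to 5.44 for Acat1 over Bdh2, 7.56 to 8.31 for Acat1 over Bdh1, 5.15 to 5.17 for Oxct1 over Bdh2, 7.29 to 8.26 for Oxct1 over Bdh1 and 2.12 to 3.11 for Bdh2 over Bdh1. Ratios and calls between the hearts need both libraries and have no such range. At 12 and 25 reads, depth limits Bdh1 to detection and an approximate level.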
